A study of Mus musculus with 50 samples.

Results

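The set described here is a stretch of mouse chromosome 2 that holds Src, Blcap, Nnat, Rprd1b and Tgm2 and a pair of short genes annotated on the strand opposite Nnat and Tgm2, AL672259.1 and RP23-396G1.3. These 7 genes, of the 37310 in the count tables, were taken by name and position, and they were put forward because of their RNA counts in these same libraries. Their differences between groups are therefore given as a description with no p-value, and no test of them is read as a result. RNA sequencing of total RNA was done in J1 cells, an embryonic stem (ES) line from 129S4/SvJae mice, kept untreated on gelatin in medium with serum and the cytokine LIF. The 3 groups were wild type cells and the NSD1-/- lines KO1 and KO2, with 2 libraries each. No source used here says how either line was made or whether it is a single clone, and KO1 and KO2 are compared with the same wild type libraries. The other 44 of the 50 samples of the series, from chromatin assays, were not analysed here.

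NSD1 is a methyltransferase that places H3K36me2, a mark that spreads over gene bodies and intergenic chromatin and helps direct DNA methylation. Src encodes a non-receptor tyrosine kinase that passes on signals from integrins and growth factor receptors. Nnat, for neuronatin, encodes a small membrane protein of the endoplasmic reticulum and is an imprinted gene, expressed from the paternal copy, that lies within Blcap, a gene linked to cell growth and apoptosis. Rprd1b encodes a protein that binds the tail of RNA polymerase II. Tgm2 encodes tissue transglutaminase, a calcium-dependent enzyme that cross-links proteins and is a known target of retinoic acid.

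The 7 genes span 728.0 kb of mm9. Src lies on the plus strand at chr2:157244180-157297598, and Blcap begins 84.5 kb beyond its end, on the minus strand at chr2:157382098-157397010. Nnat, at chr2:157385814-157388258 on the plus strand, shares no exon base with Blcap and sits inside 1 intron in 3 of the 6 annotated Blcap transcripts. AL672259.1 is annotated as a microRNA gene of 87 bases at chr2:157388097-157388183 on the minus strand, and all 87 bases lie opposite untranslated sequence of Nnat. Rprd1b follows after 457.2 kb on the plus strand at chr2:157854233-157958033 and runs into Tgm2, which lies on the minus strand at chr2:157942138-157972172. An exon of Rprd1b shares 370 bases with exon sequence of Tgm2. RP23-396G1.3, a non-coding transcript at chr2:157942890-157943641, lies wholly opposite Tgm2 exons, with 102 of its 633 exon bases opposite coding sequence and 531 opposite untranslated sequence. Src and Blcap have no annotated exon opposite.

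RefSeq promoters, from 250 bases before to 50 after the start of a gene, were at hand for 4 of the 7 genes: Src, Nnat, Blcap and Rprd1b. The promoters of Src, Nnat and Blcap are shown because their CpG content differs along the stretch. Capitals mark each CG dinucleotide, the site of DNA methylation, and the build is GRCm38.p6, whose coordinates are not those of the count tables.
Src, plus strand: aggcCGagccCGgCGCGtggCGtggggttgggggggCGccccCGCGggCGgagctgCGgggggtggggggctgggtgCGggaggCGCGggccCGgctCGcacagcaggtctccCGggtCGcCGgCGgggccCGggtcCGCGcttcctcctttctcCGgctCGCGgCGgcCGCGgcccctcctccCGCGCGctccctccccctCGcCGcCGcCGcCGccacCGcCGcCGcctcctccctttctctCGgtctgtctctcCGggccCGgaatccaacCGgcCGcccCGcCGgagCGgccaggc
Nnat, plus strand: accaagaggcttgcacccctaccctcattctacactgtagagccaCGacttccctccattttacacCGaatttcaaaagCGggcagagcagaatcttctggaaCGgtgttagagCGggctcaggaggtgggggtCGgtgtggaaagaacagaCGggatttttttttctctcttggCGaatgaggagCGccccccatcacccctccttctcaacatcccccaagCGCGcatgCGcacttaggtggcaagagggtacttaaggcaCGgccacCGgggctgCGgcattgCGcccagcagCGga
Blcap, minus strand: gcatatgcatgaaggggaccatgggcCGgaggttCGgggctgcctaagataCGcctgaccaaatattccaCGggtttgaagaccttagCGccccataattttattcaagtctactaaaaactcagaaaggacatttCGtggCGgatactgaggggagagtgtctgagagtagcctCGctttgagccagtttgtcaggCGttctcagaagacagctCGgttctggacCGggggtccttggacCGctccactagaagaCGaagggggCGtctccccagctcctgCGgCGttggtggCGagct
The Src promoter (chr2:157424043-157424342) holds 47 CG, which 1.4% of the 32851 promoters of the same length reach or pass. The promoters of Nnat (chr2:157559828-157560127) and Blcap (chr2:157566312-157566611) hold 17 each, a number reached by 31.4%. Rprd1b holds 31, reached by 10.6%, and the median of all promoters is 7. The letters describe the promoters and say nothing of their methylation here.

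Library totals ran from 1150089 to 1285487 counts, of which 32.3% to 37.2% lay at AY036118, a locus that overlaps ribosomal RNA sequence. Apart from it, 88.6% to 90.6% of the counts lay at genes whose exons overlap an exon of the other strand, and abundant transcripts had few counts of their own. Beta-actin (Actb) held between 104 and 144 counts. Rpl23a, a ribosomal protein gene, held 29 to 46, whereas Tlcd1 on the other strand held 11382 to 18509. The counts were therefore read as fragments from the strand opposite to the counted gene, and each value below names the counted gene. Counts at AL672259.1 then describe transcripts in the direction of Nnat, and those at Rprd1b and RP23-396G1.3 transcripts in the direction of Tgm2. At Src and Blcap, with nothing annotated opposite, fragments of the gene's own transcripts and of an unannotated opposite transcript cannot be told apart. Counts at Nsd1, the targeted gene, which also has no exon opposite, were 21 and 25 (wild type), 55 and 38 (KO1) and 27 and 21 (KO2); on that strand they do not show whether Nsd1 was lost. ES cell identity could be checked in the same indirect way only: Gm13061, opposite the pluripotency gene Lin28a, had 362 to 515 counts per library and fell in the lines together by 0.43 ± 0.08 on the log2 scale (adjusted p 0.000313, edgeR quasi-likelihood test, Benjamini-Hochberg). Pou5f1, a pluripotency factor gene with no exon opposite, had 14 to 23. Klf4 and Sox2, also with no exon opposite, had 133 to 174 and 66 to 100. In the lines together Klf4 stood at 0.10 ± 0.12 and Sox2 at -0.04 ± 0.15. Of the 8 listed ES cell markers tested by their own symbol, 0 were called in any comparison. The part of the fall at Gm13061 in the differences below was not tested.

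Counts at Src were higher in every library of both NSD1-/- lines than in wild type. The wild type libraries held 5 and 7, those of KO1 24 and 14, and those of KO2 30 and 17. Scaled to the effective library size (CPM), the level was 5.05 ± 1.09 for wild type, 15.2 ± 5.3 for KO1 and 19.9 ± 8.8 for KO2 (SD, n = 2 for each). The lowest knockout library stood at 11.5 CPM and the highest wild type library at 5.82, so the groups did not overlap, while KO1 and KO2 overlapped each other. The members were chosen on these counts, so nothing is read from this separation or from those below. The share of all tested genes that separate in this way was not counted. The log2 fold change against wild type was 1.58 ± 0.48 in KO1 and 1.94 ± 0.45 in KO2. The lines differed by -0.37 ± 0.35, a value that turned to 0.14 without KO2 replicate 1. Here and elsewhere, the ± of a log2 fold change is an approximate standard error. It was derived as the absolute log2 fold change over the square root of the F statistic of the edgeR test. In a culture of mixed cells, more cells of a type and more RNA per cell cannot be told apart, and this holds for each difference below.

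**Figure D1:**
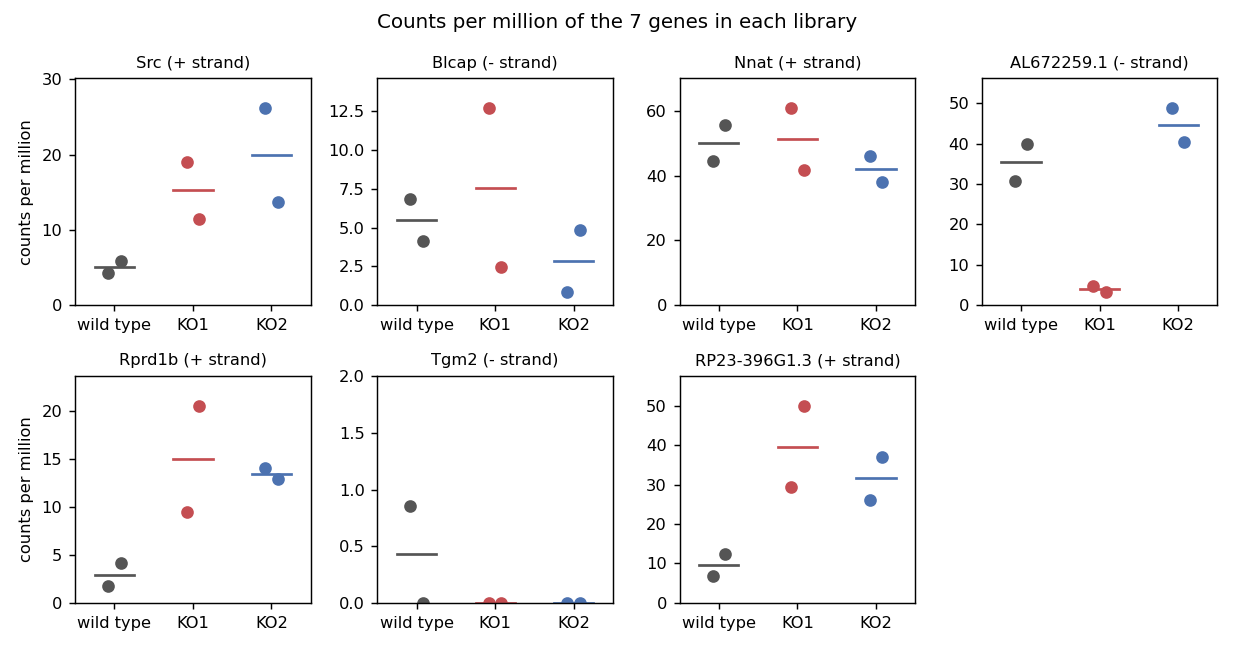
CPM of the 7 genes in each library, on linear axes from 0; points are libraries, bars are means of 2, and the strand is that of the counted gene. Src, Rprd1b and RP23-396G1.3 lie higher in all 4 knockout libraries than in wild type, AL672259.1 is low in the KO1 libraries, at 4.75 and 3.28, and Nnat and Blcap overlap between groups. The genes were chosen on these counts.

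Src itself and 15 kinases, regulators and substrates around it gave few counts of their own. Of the 16 listed genes, 4 besides Src were tested, and none of these was called against wild type. Matk, a kinase related to Csk that acts on Src kinases, passed the test between the lines. Matk held 47 and 54 counts (wild type), 63 and 54 (KO1) and 34 and 28 (KO2), and stood higher in KO1 than in KO2 by 0.85 ± 0.23 (log2; adjusted p 0.0076, edgeR quasi-likelihood test, Benjamini-Hochberg). That call was lost with DESeq2 and without KO1 replicate 1 or KO2 replicate 2 (adjusted p up to 0.131 with a library left out; 0.00556 to 0.157 over the alternatives). Pag1 and Blk held 0 counts in all libraries, though under the strand reading above these values describe the opposite strand. Of the family members, only Lyn has a counted gene opposite it, Gm17726, at 11 to 24 counts and a log2 difference of -0.06 ± 0.33 in the lines together (adjusted p 0.953).

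Around Nnat, the signal differed between the strands and between the lines. At AL672259.1, opposite the end of Nnat, the wild type libraries held 36 and 48 counts and the KO2 libraries 56 and 50, whereas the KO1 libraries held 6 and 4. The levels were 35.4 ± 6.44 CPM for wild type, 4.01 ± 1.04 for KO1 and 44.6 ± 6.01 for KO2 (SD, n = 2). Both KO1 libraries lay below all others, and both KO2 libraries, at 48.8 and 40.3 CPM, lay above both of wild type, the lower of them only just above the 39.9 of wild type replicate 2. The log2 fold change was -3.10 ± 0.38 in KO1 and 0.33 ± 0.23 in KO2, and KO1 stood -3.43 ± 0.36 from KO2. The summed counts gave 0.114 of the wild type level in KO1 (exact 95% interval 0.0526 to 0.219, for counting error only) and 1.25 in KO2 (0.932 to 1.69). The mean of the lines against wild type, -1.39 ± 0.27, lies between values that share no direction.

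Counts at Nnat itself, which describe the strand of Blcap, showed no such gap. Wild type held 52 and 67, KO1 77 and 51, and KO2 53 and 47. The levels of 50.1 ± 7.93, 51.4 ± 13.5 and 42.1 ± 5.87 CPM (SD, n = 2) overlapped, and the log2 fold changes were 0.04 ± 0.21 in KO1 and -0.26 ± 0.22 in KO2. Per exon length, Nnat gave 27.4 ± 4.34 CPM per kb in wild type and AL672259.1 gave 407 ± 74. The latter is raised by its length, since any fragment that touches the 87 bases counts. Blcap, which was too low for the filter, had 8 and 5 counts (wild type), 16 and 3 (KO1) and 1 and 6 (KO2). The spread of Blcap within KO1 was wider than any distance between the group means, so no difference could be seen at this depth.

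Listed imprinted genes of chromosome 2 were compared for the same strand pattern. Of the 9 listed genes, 4 passed the filter under their own symbol, among them Nnat. Apart from AL672259.1, 3 tested genes lie opposite listed genes, and of these AF085738 passed the test against wild type. AF085738, opposite Gnas, the imprinted gene for a G protein subunit, held 4972 and 5087 counts (wild type), 3392 and 3401 (KO1) and 4180 and 4550 (KO2). AF085738 fell in KO1 by 0.63 ± 0.05 on the log2 scale (adjusted p 4.56e-11) and in KO2 by 0.21 ± 0.05 (adjusted p 0.00172). Counts at Gnas itself rose from 102 and 102 to 191 and 137 with KO1 (0.62 ± 0.15, adjusted p 0.00572), and KO2 held 69 and 76 (-0.50 ± 0.17, adjusted p 0.0715). Counts at H13, a peptidase gene, rose in KO1 (0.73 ± 0.22, adjusted p 0.0285) and stood at -0.26 ± 0.25 in KO2 (adjusted p 0.598). Under the strand reading above, H13 transcripts would be counted at Gm17559, which lies opposite. Gm17559 held 262 and 235 counts (wild type), 239 and 248 (KO1) and 277 and 288 (KO2) and was not called. With DESeq2 neither Gnas nor H13 was called in KO1. Without KO1 replicate 1 Gnas was not called in KO1 (adjusted p 0.233; 0.000541 to 0.233 over the alternatives), and H13 was not called without either wild type or either KO1 replicate (adjusted p up to 0.189; 0.0191 to 0.40 over the alternatives).

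Counts at the neurofilament gene Nefm, opposite Nefl, rose in KO1 and fell in KO2. Under the strand reading above, these counts describe transcripts in the direction of Nefl. Those in the direction of Nefm would be counted at Nefl, which held 0 to 6 counts per library. Nefm held 69 and 69 counts (wild type), 228 and 197 (KO1) and 35 and 54 (KO2), a log2 fold change of 1.55 ± 0.15 for KO1 (adjusted p 1.06e-08) and -0.64 ± 0.20 for KO2 (adjusted p 0.0458; 0.0169 to 0.411 over the alternatives). The KO2 call was lost without any single library other than KO2 replicate 2. Of 7 listed neural markers, 5 are in the tables and 2, Nefm and Pax6, were tested by their own symbol. Pax6 held 172 and 184 counts (wild type), 215 and 208 (KO1) and 159 and 196 (KO2) and was not called in any comparison. Pax6 lies opposite Elp4, so by the same reading its counts describe the direction of Elp4. Pax6 transcripts would be counted at Elp4, which held 0 to 1 counts per library. The summed counts of the list, most of them at Nefm and Pax6, ran from 250 to 262 (wild type), 421 to 457 (KO1) and 202 to 259 (KO2). Their part in the difference at AL672259.1 was not tested.

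At Tgm2, both genes that lie opposite its exons had more counts in both lines. RP23-396G1.3 held 8 and 15 counts (wild type), 37 and 61 (KO1) and 30 and 46 (KO2). Rprd1b held 2 and 5 (wild type), 12 and 25 (KO1) and 16 and 16 (KO2). No knockout library of either gene overlapped wild type: RP23-396G1.3 stood at 6.85 and 12.5 CPM in wild type and at 26.2 or more in the lines, and Rprd1b at 1.71 and 4.16 against 9.49 or more. As at Src, nothing is read from this separation, since both genes were chosen on these counts. Tgm2 itself, whose counts describe the strand of Rprd1b, held 1 count in 1 wild type library and 0 in the other 5, at or under the floor of 3 counts in every group, so no fold is given.

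Along Tgm2, the fold changes of both genes differed by less than the standard error of Rprd1b. The log2 fold change of RP23-396G1.3 was 2.01 ± 0.34 in KO1 and 1.70 ± 0.36 in KO2, and that of Rprd1b was 2.30 ± 0.55 and 2.15 ± 0.57. Single libraries moved the values of Rprd1b: without wild type replicate 2 they were 3.05 in KO1 and 2.91 in KO2, and without KO1 replicate 2 that of KO1 was 1.64. Between the lines the differences were 0.31 ± 0.27 and 0.15 ± 0.40, and without KO1 replicate 2 they turned to -0.13 and -0.50. The ratio of summed counts in the lines together was 3.68 for RP23-396G1.3 (exact 95% interval 2.38 to 5.96) and 4.8 for Rprd1b (2.21 to 12.4). These intervals cover counting error only and leave out the spread between libraries and lines. Per kb, RP23-396G1.3 gave 15.3 ± 6.29 CPM (wild type), 62.6 ± 23.2 (KO1) and 50 ± 12.2 (KO2). If all Rprd1b counts are placed on the 370 bases shared with Tgm2, they come to 7.94 ± 4.68, 40.5 ± 21.1 and 36.3 ± 2 CPM per kb (SD, n = 2), in the same order of groups, each mean below that of RP23-396G1.3. How many of the Rprd1b counts lie on those bases is not told by the tables. Both genes would count Tgm2 transcripts under the strand reading above, so they are not independent measures.

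By their own symbols, other transglutaminases and RPRD genes passed no test. Under the strand reading above, the counts given here describe the opposite strand, the 0 counts included. Of 9 listed transglutaminases and relatives, 1 was tested by its own symbol, Tgm4, which lies opposite Zdhhc3 and stood at -0.21 ± 0.12 in the lines together (log2, adjusted p 0.361), with 152 and 153 counts in wild type and 125 to 144 in the lines. Tgm4 transcripts would be counted at Zdhhc3, which held 5 to 9 counts per library and was not tested. Tgm3, Tgm7 and F13a1 held 0 counts in all libraries. Of 8 listed RPRD and polymerase tail genes, 3 besides Rprd1b were tested and none was called, and Rprd1a held 0 counts in all libraries.

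**Figure D2:**
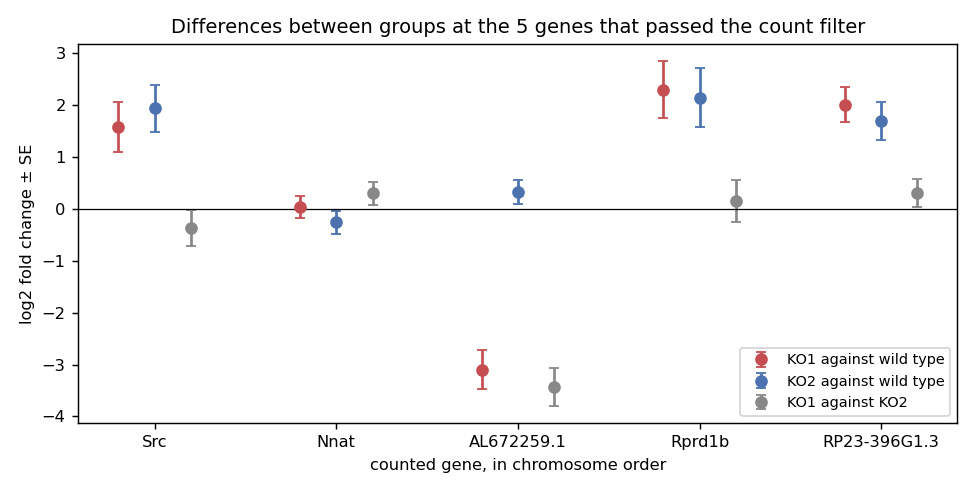
Log2 fold change with its standard error for the 5 genes that passed the count filter, for each line against wild type and for KO1 against KO2. Src, Rprd1b and RP23-396G1.3 lie between 1.58 and 2.30 in both lines, whereas AL672259.1 lies at -3.10 in KO1 and 0.33 in KO2 and Nnat near 0.

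The members did not share 1 difference. Over 6 libraries, the log2 CPM of Rprd1b and RP23-396G1.3 had a Pearson r of 0.97. Src had an r of 0.78 with Rprd1b and 0.72 with RP23-396G1.3. The same wild type libraries were the lowest in each of these genes, which raises r. An r within the knockout libraries alone was not computed. AL672259.1 had an r of -0.16 with Src, -0.40 with Rprd1b and -0.50 with RP23-396G1.3, and Nnat had 0.03 with Src and -0.23 with AL672259.1. By the call rule used for all genes (edgeR adjusted p under 0.05), 3 of the 5 members that passed the filter were counted higher and 1 lower in the lines together, where 2.72% and 3.89% of the 5034 tested genes were (6.62% either way). In KO1 the numbers were 3 and 1, with 3.46% and 6.34% of all tested genes, and in KO2 3 and 0, with 5.01% and 3.97%. Between the lines AL672259.1 was counted lower in KO1, as were 11.4% of all tested genes (19.3% either way). Leaving out 1 library changed these numbers in several cases. Without wild type replicate 1, Src and Rprd1b dropped out in the lines together and in KO1, and Rprd1b in KO2. In KO1 Src also dropped out without wild type replicate 2 or KO1 replicate 1, and Rprd1b without KO1 replicate 2. In KO2 Src dropped out without KO2 replicate 1. DESeq2 counted 2 members in KO1 (AL672259.1 and RP23-396G1.3), 0 in KO2 and 0 in the lines together, where it gave no adjusted p to 2, 4 and 5 of them. In wild type Src held 5 and 7 counts and Rprd1b 2 and 5, under the minimum count of 10. These genes passed the filter through the knockout libraries, where they were high. Since the members were chosen on these counts, and some passed the filter in this way, nothing is read from these numbers.

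Genes between and around the members were chosen by position alone. Within the span lie 10 other annotated genes, 5 of them with 0 counts in all libraries and none above 4 in any. Ctnnbl1, in the gap between Blcap and Rprd1b, had the most, 16 counts over all 6 libraries. Tti1, whose end lies just before the start of Rprd1b, had 5 in all. Just outside the members, Manbal before Src had 4 counts in 1 KO1 library and 1 in a KO2 library, and D630003M21Rik beyond Tgm2 had none. Whether the differences at Src and at Tgm2 extend over the 457.2 kb gap cannot be seen at these counts.

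Within 1 Mb of the span on each side lie 72 other genes, of which 4 could be tested, all of them before Src, and 27 held 0 counts throughout. None of these 4 stood near the fold changes of Src, Rprd1b or RP23-396G1.3: their log2 fold changes ran from -0.19 to -0.02 in KO1 and from -0.79 to 0.23 in KO2, with a median of -0.13 in each line, against 0.00 and -0.01 for all tested genes. In KO1 1 of the 4 passed the test, lower, and in KO2 2 passed higher and 1 lower. Over all 423 tested genes of chromosome 2 the median was 0.02 in KO1 and -0.07 in KO2, and 8.51% and 8.98% were called, against 9.79% and 8.98% of all tested genes.

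**Figure D3:**
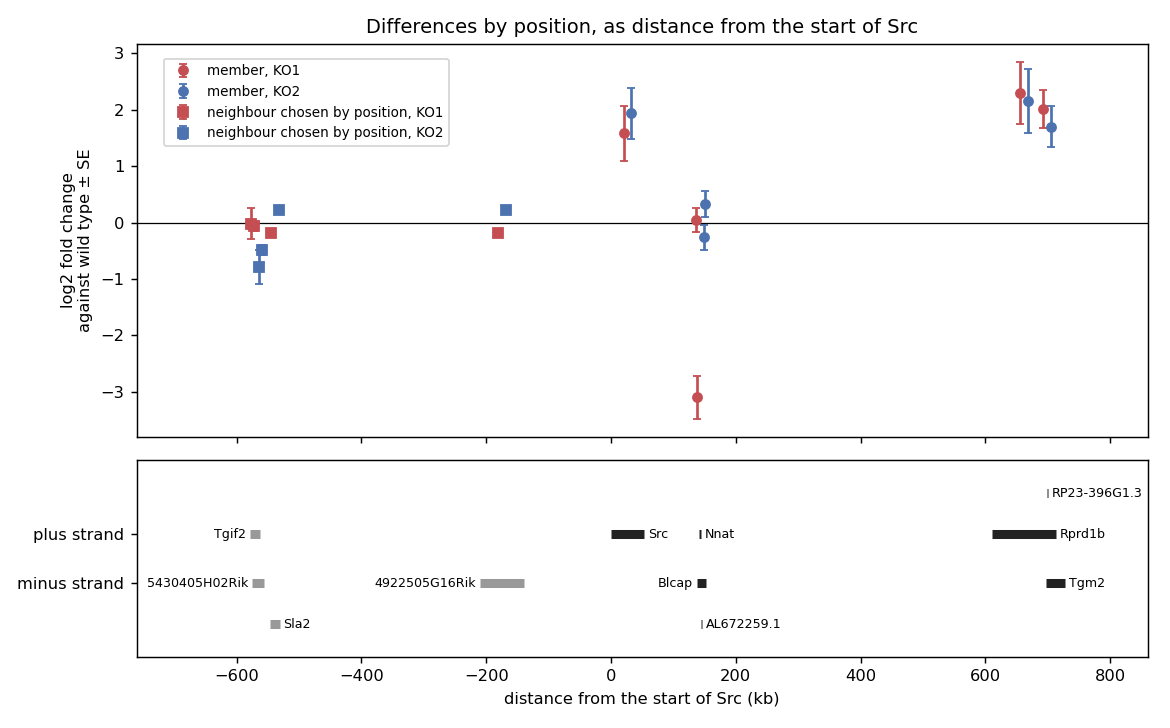
Log2 fold change against wild type with its standard error (top) for the 5 tested members (circles) and the 4 tested neighbours (squares), by distance from the start of Src in kb, with the extent of each gene by strand (bottom). The neighbours before Src lie between -0.79 and 0.23, and no gene beyond Tgm2 could be tested.

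Of the 4 tested neighbours, 3 differed between the lines, a contrast in which 19.3% of all tested genes were called. Sla2, which encodes an adaptor that resembles Src and lies opposite 1110008F13Rik, held 1434 and 1530 counts (wild type), 1314 and 1406 (KO1) and 1651 and 1850 (KO2). Sla2 counts were lower in KO1 than in KO2 by 0.42 on the log2 scale (-0.42 ± 0.06, adjusted p 2.6e-06), while against wild type they fell in KO1 (-0.19 ± 0.06, adjusted p 0.0351) and rose in KO2 (0.23 ± 0.06, adjusted p 0.00872). Counts at 4922505G16Rik, opposite the oligosaccharyltransferase gene Rpn2, were also lower in KO1 than in KO2 (-0.41 ± 0.07, adjusted p 9.1e-05), with 585 and 580 (wild type), 536 and 537 (KO1) and 670 and 700 (KO2). 5430405H02Rik, opposite Tgif2, a repressor gene of TGF-beta signalling, fell in KO2 (452 and 487 counts in wild type, 311 and 365 in KO2; -0.48 ± 0.09, adjusted p 0.00028) and stood at -0.07 ± 0.08 in KO1 (adjusted p 0.696). Tgif2 was not called in either line (-0.02 ± 0.27 and -0.79 ± 0.30).

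The difference between the lines remained called at Sla2, 4922505G16Rik and 5430405H02Rik with any 1 library left out (adjusted p up to 0.00243, 0.00812 and 0.0405). Against wild type the calls were less firm. Sla2 was not called in KO1 without wild type replicate 2 or KO1 replicate 1 (adjusted p 0.0193 to 0.507 over the alternatives), nor in KO2 without KO2 replicate 2 (0.00321 to 0.0506). The call of 4922505G16Rik in KO2 (0.22 ± 0.07, adjusted p 0.0458) was lost without any 1 of the 6 libraries (0.0312 to 0.232 over the alternatives). In the lines together 5430405H02Rik was the 1 neighbour called (-0.28 ± 0.07, adjusted p 0.0176), and it was not called without wild type replicate 2, KO1 replicate 2 or KO2 replicate 1 (0.00608 to 0.753).

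Genes elsewhere with the most similar profile were taken by the smallest root mean square difference in centred log2 CPM over the 6 libraries. For AL672259.1 they were Gm16989, on chromosome 13 opposite the transcription factor gene Tcfap2a (difference 0.31, Pearson r 0.98), and Ceacam16, on chromosome 7 (0.41, r 0.98). Gm16989 stood at 43.7 and 34.1 CPM (wild type), 8.7 and 4.92 (KO1) and 51.5 and 42 (KO2). For both Rprd1b (0.23) and RP23-396G1.3 (0.25) the nearest gene was Grb10, an imprinted adaptor gene on chromosome 11, at 15.4 and 21.6 CPM in wild type and 48.2 to 80.7 in the lines. The second nearest were Fam151a, opposite Acot11, for Rprd1b (0.34) and 1810009N23Rik, opposite Galnt6, for RP23-396G1.3 (0.29). For Src they were Gm7284 on chromosome 5 (0.21) and Stx8 on chromosome 11 (0.26), and for Nnat, whose profile was nearly flat, Slc4a5 (0.04) and 1700109K24Rik (0.08). None of these genes lies on chromosome 2.

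**Figure D4:**
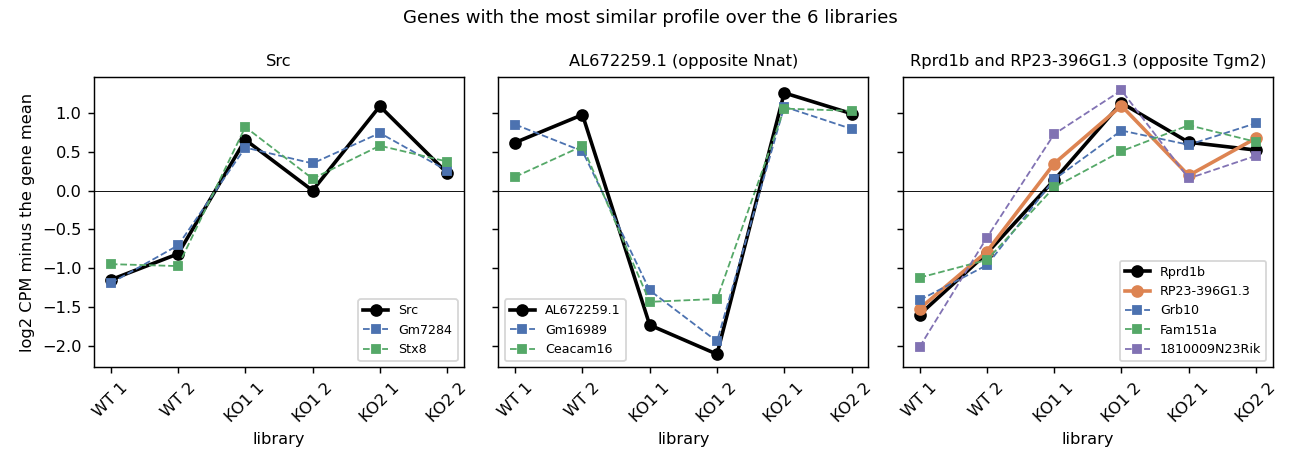
Log2 CPM minus the gene's mean in each library for Src, AL672259.1, Rprd1b and RP23-396G1.3 (solid lines) and the genes with the most similar profile (dashed lines); lines join libraries of no order. AL672259.1 and its nearest genes are low in the KO1 libraries, and the others are low in the wild type libraries.

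Genes opposite markers of fibroblasts, which can be present as feeder cells, were tested as well. Of all tested genes, 3.89% were called lower in the lines together. Of 4 tested genes opposite listed fibroblast markers, 3 fell in the lines together: Gm17329 (opposite Col1a1, 78 and 94 counts in wild type and 1 to 4 in the lines, -4.84 ± 0.30, adjusted p 1.91e-12), Syn3 (opposite Timp3, -2.60 ± 0.21, adjusted p 5.48e-10) and Gm15270 (opposite Ctgf, -0.62 ± 0.10, adjusted p 0.000168). The summed counts of the 4 ran from 1699 to 1820 (wild type), 1691 to 1709 (KO1) and 1448 to 1602 (KO2), most of them at Apol7d, opposite Fn1. By their own symbols, Col3a1, Postn, Col1a2 and Thy1 held 0 counts in all libraries, though those values describe the opposite strand. The part of such cells in the differences at Src, Nnat and Tgm2 was not tested.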

How the data were processed

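Per the file headers, featureCounts 2.0.1 was run on paired ends with strand setting 1, adding exons up to genes of GENCODE mouse version 1 (mm9). The deposited values are raw counts, a table per library. The submitters' processing notes name STAR 2.5.4b and Trim Galore 0.6.4, and also bedtools 2.92.2, featureCounts 2.0.0, GATK 4.1.4.0 and Bowtie2, with no role. No source used here says whether the kit marks strand. All 37310 genes matched the GENCODE annotation in span and strand. Exon overlaps of at least 50 bases on the other strand were found with bedtools 2.31.1.

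The tests used edgeR 4.0.16 under R 4.3.3, with filterByExpr by group (minimum count 10), TMM scaling, and a robust quasi-likelihood fit over all 6 libraries with a mean per group, which left 5034 genes and 3 residual degrees of freedom. Genes were called at a Benjamini-Hochberg adjusted p under 0.05 over all tested genes. DESeq2 1.42.0 was an alternative, with other scaling, filters, a replicate term and left-out libraries. Steps were tested on simulated data. Separate cultures per library are stated nowhere in the labels: p-values cover the spread between these libraries alone, which may be technical. Replicates of a group differed by more than sampling noise (chi-square per degree of freedom 1.46 to 2.07).

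The members and lists were chosen with earlier results of these data known. Named genes were the 7 members, tested neighbours, called list genes or else the 2 most abundant of a list, and the 2 tested genes nearest in profile to each member; some list genes are given as counts only. The lists also held markers of ES cells (0 of 8 tested called by their own symbol), and of endoderm (0 tested, 0 to 1 counts per library).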

Additional observations from a re-analysis of the deposited data

Results flagged for a closer look

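Several values differed between the KO1 and KO2 lines. AL672259.1, opposite Nnat, was below both wild type libraries in KO1 and above both in KO2. The log2 difference between the lines was -3.43 ± 0.36. No p-value is given for this member, since it was chosen on these counts. Ceacam16 (-2.83) was taken for its likeness to AL672259.1 over the same libraries, so its like difference follows from that choice and is no separate result. No p-value is given for Ceacam16 either. By edgeR's quasi-likelihood test of KO1 against KO2, with Benjamini-Hochberg adjustment, 3 of the 4 tested neighbours differed: 5430405H02Rik (0.42, adjusted p 0.000805), Sla2 (-0.42, adjusted p 2.6e-06) and 4922505G16Rik (-0.41, adjusted p 9.1e-05). Of the list genes, Matk (0.85, adjusted p 0.0076), H13 (0.99, adjusted p 0.00199), Gnas (1.12, adjusted p 4.52e-06), AF085738 (-0.42, adjusted p 4.23e-08), Gm15270 (0.46, adjusted p 0.0126) and Nefm (2.20, adjusted p 1.74e-11) differed as well. With DESeq2 the calls of H13 (adjusted p 0.0929; 0.00107 to 0.0929 over the alternatives), Gm15270 (0.174; 0.00963 to 0.174) and Matk were lost, and that of Gm15270 was also lost without KO1 replicate 1 (0.149) or KO2 replicate 2 (0.155). Of all tested genes, 19.3% were called in that contrast.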

How the results depend on the processing

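Over 225 combinations of a member's log2 fold change and an alternative, 210 stayed within 1 SD of the libraries and 15 moved further; the sign held in both lines against wild type for Src, Rprd1b, RP23-396G1.3 and AL672259.1. With KO1 and KO2 as a single group, AL672259.1 stood at -0.56 in place of -1.39, none of the 5 tested members was called, and the lines together gave 6 genes in place of 333; in that fit the difference between the lines counts as spread, and Gm13061 (adjusted p 0.333) and Gm15270 (adjusted p 0.331) were not called in the lines together. DESeq2 called 104 genes in the lines together, 182 in KO1, 140 in KO2 and 366 between the lines (edgeR 333, 493, 452 and 971), and testing for changes beyond 0.5 (log2) left 16, 74, 59 and 197; the cause of the DESeq2 difference was not tested. DESeq2 gave no adjusted p to any of the 5 members in the lines together. With 1 library left out the numbers were 216 to 362, 279 to 590, 325 to 425 and 560 to 1067. In the lines together wild type replicate 1 or 2 brought this to 218 or 216; KO1 replicate 1 or 2 brought it to 279 or 303 in KO1 and to 560 or 642 between the lines. Of the 4 neighbours, DESeq2 called 0 in the lines together and 0 in KO1, the single group 0, the test against 0.5 gave 0 in each contrast, and KO1 gave 0 with no filter or without AY036118. Left-out libraries gave 0 to 1, 0 to 1, 1 to 2 and 3 to 3. Flanks of 0.5 Mb, with 1 tested gene, gave 0, 0, 1 and 1 called. Flanks of 2 Mb, with 18 tested genes, gave 2 in the lines together, 1 in KO1, 5 in KO2 and 6 between the lines. With the replicate number as a block, 320, 482, 416 and 935 genes were called, and 1, 1, 2 and 3 neighbours; the numbers share no deviation (correlations 0.011, -0.007 and -0.036). An overlap of 1 base in place of 50 left 5 members with an exon opposite. Src, Rprd1b and AL672259.1 rest on 2 to 56 counts per library, so depth limits their fold changes.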
